A study of Mus musculus with 6 samples.

Results

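Dual-specificity phosphatases and the Sprouty and Spred proteins are the brakes of mitogen-activated protein kinase (MAPK) signaling. They were examined here in RNA of macrophages from Lewis lung carcinoma (LLC) tumors. The set holds 10 of the 22377 genes in the deposited table, namely Dusp1, Dusp2, Dusp4, Dusp5, Dusp6, Dusp10, Dusp16, Spry1, Spry2 and Spred1. The members were selected on their values in the comparison of ko with wt libraries and on their known roles, so the differences between these groups are given as a description. Where calls of a test over all genes are counted for the members, the share over all genes stands beside them and nothing is read from them. All 10 members were found by symbol, and all 10 were among the 13884 genes that passed edgeR's filter on low counts.

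The 6 libraries comprise 3 labelled wt and 3 labelled ko, the latter also labelled knockdown, and each library is a separate biosample. The only RNA sequencing groups in the study are Npm1+/+ and Npm1+/- mice, so wt is read as Npm1+/+ and ko as Npm1+/-, although a knockdown, a knockout and a heterozygous genotype differ. The study used male and female mice with a heterozygous loss in the whole animal and implanted LLC cells, a mouse lung carcinoma line, under the skin, so that every host cell of a ko tumor carried the loss and the implanted tumor cells did not. The sequenced cells were sorted as CD45+ CD11b+ F4/80+ macrophages in the methods. The labels differ from this and name tumor tissue, extraction with TRIzol and a small RNA library. The labels give no strain, age or treatment time, and neither they nor the methods say whether animals were pooled. A legend in the study speaks of individual mice, in a number that differs from the libraries per group here. Npm1 mRNA itself was not lower in ko. It was 142, 380.1 and 381 CPM in wt replicates 1, 2 and 3 and 441, 498 and 343 in ko replicates 1, 2 and 3. CPM are counts scaled to library size, after TMM scaling, which corrects for differences in composition.

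Total counts ranged from 36550775 to 38147320 per library. The first principal component of all genes tested, which held 67.99% of the variance, placed wt replicate 1 at -108.5 and the other libraries between -4.54 and 52.0, so the members' differences are also given without that library. Macrophage markers were present in every library, and the 10 markers summed to between 5701 and 6555 CPM in wt and between 3146 and 5411 in ko, without overlap. Neutrophil markers were also lower in ko, with 838 to 1609 CPM against 1890 to 2107. T cell markers summed to 26.3 to 132 CPM in wt and 103 to 304 in ko, and fibroblast markers to 32.7 to 491 and 368 to 714. Most of the fibroblast sum came from Col3a1 alone. No marker of these lists was at 0 in all 6 libraries. In such bulk RNA, fewer cells of a type and less RNA per cell cannot be told apart.

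MAPKs are kinases that pass signals from growth factors, cytokines and microbial products to the nucleus. The MAPKs ERK, JNK and p38 are switched on by phosphorylation of a threonine and a tyrosine, and dual-specificity phosphatases remove both phosphates. Many of these phosphatases are transcribed in response to the same kinases they switch off, which makes a negative feedback loop. In macrophages, Dusp1 is known for restraining p38 and JNK after stimulation of Toll-like receptors. Sprouty and Spred proteins act further upstream, between the receptor and the kinase Raf.

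The promoters of the 2 most abundant members, Dusp1 and Dusp5, are shown because each carries a recognition motif of a signal-dependent transcription factor. RefSeq promoter sequences of GRCm38.p6, covering 250 bases before to 50 bases after the annotated start, matched 9 of the 10 members, and Dusp4 had no entry. Capitals mark a cAMP response element (CRE, TGACGTCA) in Dusp1 and CArG boxes, the motif of serum response factor, in Dusp5. The Dusp1 promoter lies at chr17:26508423-26508722 on the minus strand and that of Dusp5 at chr19:53528895-53529194 on the plus strand.
Dusp1: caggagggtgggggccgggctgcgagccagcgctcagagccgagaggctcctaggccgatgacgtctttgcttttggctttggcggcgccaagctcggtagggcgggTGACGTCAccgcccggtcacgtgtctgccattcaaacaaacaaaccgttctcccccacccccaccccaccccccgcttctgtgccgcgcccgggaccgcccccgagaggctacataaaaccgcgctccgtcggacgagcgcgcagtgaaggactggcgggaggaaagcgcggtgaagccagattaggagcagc
Dusp5: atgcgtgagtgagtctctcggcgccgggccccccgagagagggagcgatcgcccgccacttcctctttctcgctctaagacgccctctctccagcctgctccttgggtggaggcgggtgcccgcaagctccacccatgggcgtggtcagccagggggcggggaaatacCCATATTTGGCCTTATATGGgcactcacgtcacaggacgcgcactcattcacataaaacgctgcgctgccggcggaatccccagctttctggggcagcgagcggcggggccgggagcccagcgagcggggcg
The CRE of Dusp1 lies 143 to 136 bases before the start. Of all 32851 promoters in the table, 1.79% hold a CRE on either strand, and of the member promoters 1 did. The CArG boxes of Dusp5 lie 82 to 73 and 72 to 63 bases before the start, directly next to each other, and 1.63% of all promoters hold at least 1 such box. The CRE half-site TGACG, which the full CRE contains, was in 4 member promoters, those of Dusp1, Dusp2, Dusp5 and Dusp16, and in 20.8% of all. The Dusp16 window, at chr6:134792579-134792878 on the minus strand, lies inside the gene, whose outer start is at 134807063. Its half-site thus belongs to an internal start. The AP-1 motif TGANTCA, the STAT motif TTCNNNGAA and the EGR motif GCGTGGGCG were in 0 member promoters and in 7.81%, 8.3% and 0.612% of all. These matches describe the letters of the window only.

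Dusp1 dominated the family. Levels of different genes are compared as FPKM, the deposited counts per kilobase of gene and scaled to the library total. Dusp1 had 1721 ± 220.3 FPKM (SD, n = 3) in wt and 1275 ± 320.2 (SD, n = 3) in ko, and it ranked 27 by mean FPKM among all 22377 genes. Its counts made up between 0.188% and 0.38% of all counts of a library. Dusp5 came next with 175 ± 27.5 FPKM in wt and Dusp2 with 135 ± 16.2, each far below Dusp1, and their wt libraries did not overlap. Dusp16 with 47.7 ± 6.05 and Dusp6 with 41.5 ± 4.77 overlapped in wt. Below them stood Spred1 with 13.6 ± 2.6 FPKM, Dusp4 with 4.76 ± 1.67, Spry2 with 4.33 ± 0.185, Dusp10 with 2.52 ± 0.341 and Spry1 with 1.3 ± 0.274 (SD, n = 3 each). Among neighbors in this order, Dusp4 and Spry2 also overlapped in wt, and the other neighbors did not. In ko the libraries of Dusp16 and Dusp6 stood apart, while Spred1 overlapped Dusp4, Dusp4 overlapped Spry2 and Spry2 overlapped Dusp10.

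**Figure D1:**
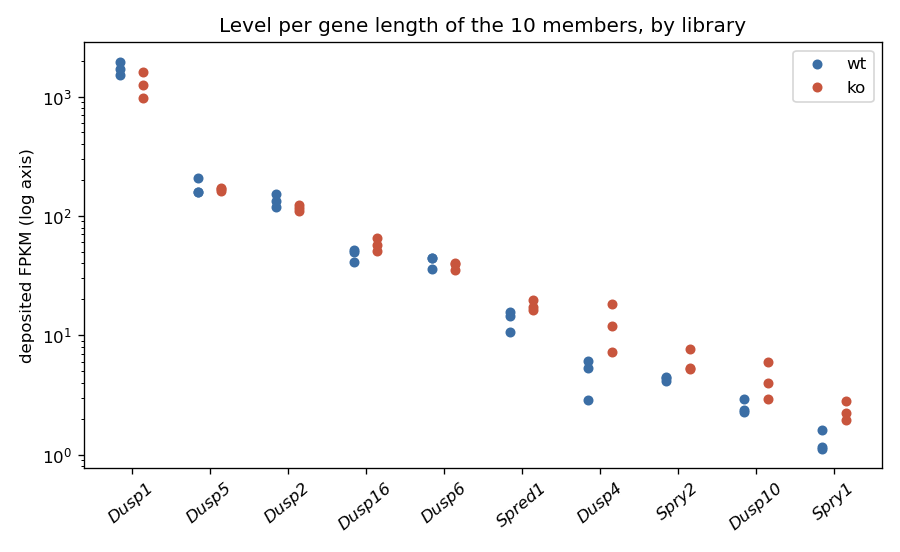
Deposited FPKM (log axis) of the 10 members in each of the 3 wt and 3 ko libraries, 1 point per library, ordered by mean level in wt. Dusp1 lies between 969 and 1957 FPKM, far above Dusp5 and Dusp2, and Spry1 lies lowest.

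The share of the phosphatase transcripts held by each member was taken from the summed FPKM of the 7 Dusp members. Dusp1 held 84.1%, 77.0% and 80.9% in wt replicates 1, 2 and 3 and 76.5%, 70.1% and 80.2% in ko replicates 1, 2 and 3, so that the groups overlapped. The sum itself was 2128 ± 180.2 FPKM in wt and 1673 ± 313 in ko (SD, n = 3 each). Without Dusp1 it was 407 ± 42.5 and 398 ± 14.7. In FPKM, which carry no TMM scaling, the groups thus lay close together once Dusp1 was left out. With TMM scaling, the log2 fold changes of Dusp5, Dusp2 and Dusp6 were -0.22, -0.35 and -0.26. Those of Dusp16, Dusp4 and Dusp10 were above 0. Dusp4 held 0.228% ± 0.0908 in wt and 0.81% ± 0.49 in ko, and Dusp10 0.119% ± 0.0205 and 0.275% ± 0.146 (SD, n = 3 each).

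Between the groups, the members did not share a direction. The abundant inducible phosphatases Dusp1, Dusp2, Dusp5 and Dusp6 had lower estimates in ko, and the scarcer Dusp4 and Dusp10, both Sprouty genes, Spred1 and, narrowly, Dusp16 had higher ones. Every ko library lay above every wt library in 5 of the 10 members, Dusp4, Dusp10, Spry1, Spry2 and Spred1, as in 13.3% of all genes tested. Every ko library lay below every wt library in 2 of the 10, Dusp2 and Dusp6, as in 12.6% of all. The quasi-likelihood test of edgeR, adjusted after Benjamini and Hochberg, called 0 of the 10 at an adjusted p under 0.05 and 0% of the 13884 genes tested. At an unadjusted p under 0.05 there were 4 members and 15.2% of all genes. DESeq2 called 0 members and 0.263% of the genes to which it gave an adjusted p. Since the members were chosen on this comparison, nothing is read from their counts.

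**Figure D2:**
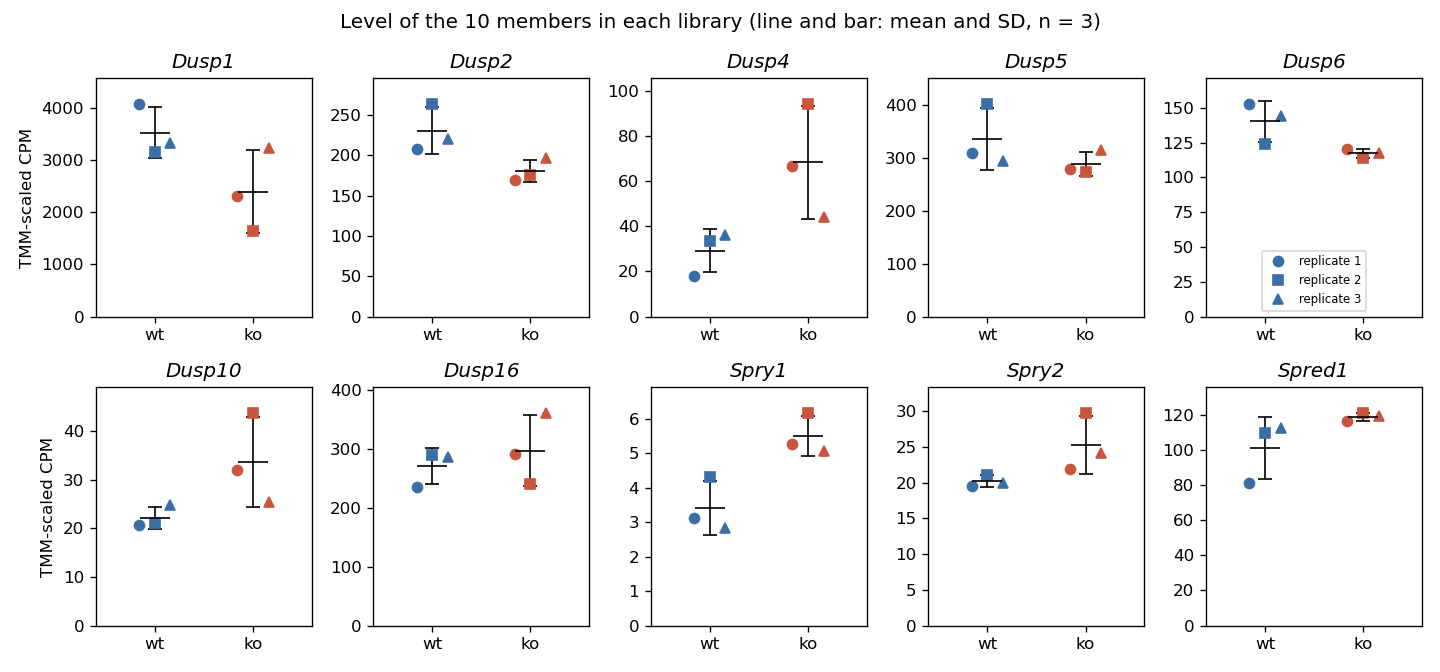
TMM-scaled CPM of each member in each library, with the mean and SD of 3 libraries per group and a marker shape per replicate number, which does not pair the libraries. Dusp4 reaches from 18.2 CPM in wt replicate 1 to 94.2 in ko replicate 2, and the 3 ko libraries of Spred1 lie within 5 CPM of each other.

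Among the nuclear phosphatases, Dusp4 differed most. Dusp4 (NCBI Gene 319520, chromosome 8 from 34807610 to 34819894 on the plus strand of GRCm38.p6) encodes MKP-2, which acts on ERK and JNK. Its level was 18.2, 33.2 and 36.3 CPM in wt replicates 1, 2 and 3 and 66.6, 94.2 and 44.1 CPM in ko replicates 1, 2 and 3. Each ko library lay above each wt library, with ko replicate 3 nearest to wt and ko replicate 2 farthest from it. The mean was 2.34-fold higher in ko, with a log2 fold change of 1.23 (standard error 0.34) from edgeR and of 0.97 (standard error 0.28) without wt replicate 1. This estimate exceeded that of 95.4% of the genes tested.

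Dusp1 (NCBI Gene 19252, chromosome 17 from 26505591 to 26508472 on the minus strand), which encodes MKP-1, went the other way. Its level was 4074, 3162 and 3332 CPM in wt replicates 1, 2 and 3 and 2309, 1640 and 3221 CPM in ko replicates 1, 2 and 3. The groups overlapped only through ko replicate 3, which lay just above wt replicate 2. The mean was 1.47-fold higher in wt than in ko, with a log2 fold change of -0.56 (standard error 0.26). Without wt replicate 1 it was -0.44 (standard error 0.27), without ko replicate 2 it was -0.36 and without ko replicate 3 it was -0.84. As FPKM, Dusp1 stood 104.6, 52.5 and 220.1 times above Dusp4 in ko replicates 1, 2 and 3, and 677, 287 and 277 times above it in wt replicates 1, 2 and 3.

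Dusp2 (NCBI Gene 13537, chromosome 2 from 127336159 to 127338377 on the plus strand) encodes PAC-1, a nuclear phosphatase of blood cells. It had 208, 264 and 219.7 CPM in wt replicates 1, 2 and 3 and 169.6, 176 and 196 CPM in ko replicates 1, 2 and 3. The ko libraries lay below the wt libraries on this scale, with a gap of less than the spread within wt, and in the deposited FPKM the groups overlapped. The estimate of the log2 fold change was -0.35 (standard error 0.13) and, without wt replicate 1, -0.42 (standard error 0.14).

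Dusp5 (NCBI Gene 240672, chromosome 19 from 53529145 to 53541809 on the plus strand), a nuclear phosphatase of ERK, had 310, 403 and 295 CPM in wt replicates 1, 2 and 3 and 279.6, 273 and 315 CPM in ko replicates 1, 2 and 3. The groups overlapped, and wt replicate 2 alone stood above the rest. The estimate of the log2 fold change was -0.22 (standard error 0.15), without wt replicate 1 it was -0.27 and without wt replicate 2 it was -0.068. An annotated antisense gene overlaps Dusp5, and none of the sources tells whether reads were counted by strand.

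Dusp6 (NCBI Gene 67603, chromosome 10 from 99263231 to 99267489 on the plus strand) encodes MKP-3, the cytoplasmic phosphatase of ERK and a transcript that ERK itself induces. It had 153, 124 and 144 CPM in wt replicates 1, 2 and 3 and 121, 114 and 117 CPM in ko replicates 1, 2 and 3. The ko libraries lay close together and just below wt replicate 2, whereas in the deposited FPKM the groups overlapped. The estimate of the log2 fold change was -0.26 (standard error 0.12) and, without wt replicate 1, -0.20 (standard error 0.13).

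Dusp10 and Dusp16, grouped here as phosphatases of JNK and p38, both had estimates above 0. Dusp1, also known for restraining these kinases, stood at -0.56. Dusp10 (NCBI Gene 63953, chromosome 1 from 184034381 to 184075636 on the plus strand) encodes MKP-5. It had 20.6, 21.1 and 24.8 CPM in wt replicates 1, 2 and 3 and 32.0, 43.8 and 25.4 CPM in ko replicates 1, 2 and 3. Each ko library lay above each wt library, ko replicate 3 by little. The estimate of the log2 fold change was 0.60 (standard error 0.21) and, without wt replicate 1, 0.55 (standard error 0.23). Without ko replicate 2, the highest library, it was 0.36.

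Dusp16 (NCBI Gene 70686, chromosome 6 from 134715468 to 134807063 on the minus strand) encodes MKP-7, a phosphatase of JNK. It had 236, 289.8 and 285 CPM in wt replicates 1, 2 and 3 and 290.3, 239 and 360.4 CPM in ko replicates 1, 2 and 3. The groups overlapped over most of their range, with a log2 fold change of 0.14 (standard error 0.18). Without wt replicate 1 it was 0.042. Without ko replicate 3 it was -0.034, so its direction rested on that library. An annotated antisense gene overlaps Dusp16, so the remark on strand for Dusp5 holds here too.

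**Figure D3:**
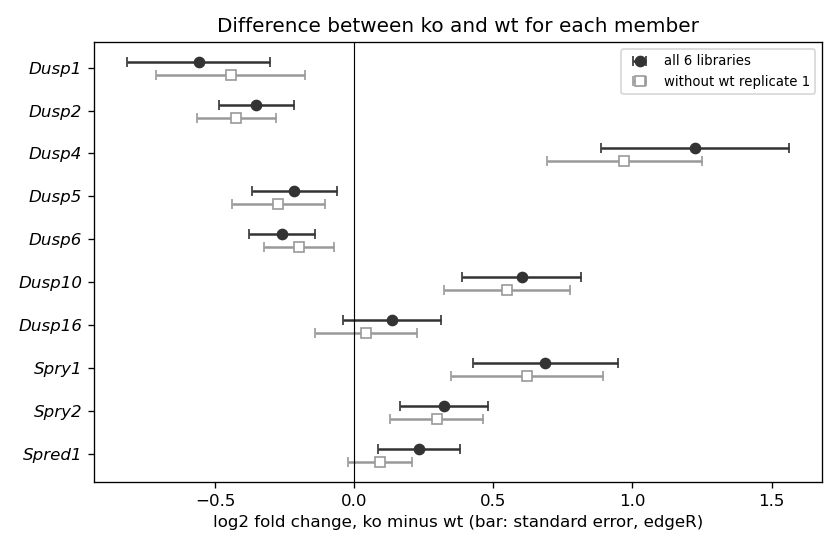
Log2 fold change of ko minus wt for each member, with its standard error from edgeR, over all 6 libraries (filled) and without wt replicate 1 (open). Dusp1, Dusp2, Dusp5 and Dusp6 lie below 0 in both fits and the other 6 members above 0, with Dusp16 and Spred1 close to 0 without wt replicate 1.

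The Sprouty and Spred members all had higher estimates in ko. Spry1 (NCBI Gene 24063, chromosome 3 from 37639947 to 37644599 on the plus strand), an inhibitor of signaling from receptor tyrosine kinases to Ras, was the scarcest member. It had 111, 153 and 106 counts in wt replicates 1, 2 and 3 and 208, 259 and 185 counts in ko replicates 1, 2 and 3, or 3.12, 4.31 and 2.83 CPM and 5.29, 6.18 and 5.06 CPM. The groups did not overlap, with a log2 fold change of 0.69 (standard error 0.26) and, without wt replicate 1, 0.62 (standard error 0.27). A gene model on the other strand overlaps Spry1, and the remark on strand holds for it too.

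Spry2 (NCBI Gene 24064, chromosome 14 from 105891947 to 105896819 on the minus strand), of the same family, had 19.6, 21.2 and 19.96 CPM in wt replicates 1, 2 and 3 and 21.96, 29.8 and 24.2 CPM in ko replicates 1, 2 and 3. The wt libraries lay close together, and ko replicate 1 exceeded the highest of them by less than 1 CPM. The estimate of the log2 fold change was 0.32 (standard error 0.16), without wt replicate 1 it was 0.30 and without ko replicate 2 it was 0.18.

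Spred1 (NCBI Gene 114715, chromosome 2 from 117121071 to 117182279 on the plus strand) brings neurofibromin, which switches Ras off, to the membrane. It had 81.0, 109.6 and 113 CPM in wt replicates 1, 2 and 3 and 116, 121 and 119 CPM in ko replicates 1, 2 and 3. The ko libraries lay just above wt replicates 2 and 3, and wt replicate 1 stood far below both. The estimate of the log2 fold change was 0.23 (standard error 0.15) and, without wt replicate 1, 0.093 (standard error 0.11).

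Single libraries set the range of most members. Among the 10, wt replicate 1 was the lowest library in 5 and the highest in 2, and ko replicate 2 was the lowest in 3 and the highest in 5. Spread within a group, as SD over mean, ran in wt from 4.05% for Spry2 to 33.2% for Dusp4, and in ko from 1.97% for Spred1 to 36.7% for Dusp4. In Dusp1 it was 13.8% in wt and 33.2% in ko, and in Dusp10 10.3% and 27.7%.

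The order of the libraries in Dusp1 and Dusp4 was set beside the markers of the cell types that the sort could hold. The macrophage markers summed to 6555, 6049 and 5701 CPM in wt replicates 1, 2 and 3 and to 4021, 3146 and 5411 in ko replicates 1, 2 and 3, and 7 of the 10 markers lay lower in every ko library. Over all genes tested, 12.6% lay lower and 13.3% higher in every ko library, for comparison with such counts here and below. Dusp1 equalled 62.2%, 52.3% and 58.4% of that sum in wt replicates 1, 2 and 3 and 57.4%, 52.1% and 59.5% in ko replicates 1, 2 and 3. On this scale, chosen after the values were seen, Dusp1 overlapped between the groups throughout. Dividing by this sum moves the median log2 fold change of all genes tested to 0.63, so the typical gene did not stay level on it. With TMM scaling, the estimate of Dusp1 exceeded that of 7.27% of the genes tested. Whether Dusp1 follows the share of macrophages was not tested.

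T cell markers summed to 26.3, 43.5 and 132 CPM in wt replicates 1, 2 and 3 and to 119, 304 and 103 in ko replicates 1, 2 and 3. All 9 of these markers had higher estimates in ko, and 1 lay higher in every ko library. Like Dusp4 and Dusp10, the sum was lowest in wt replicate 1 and highest in ko replicate 2. This order is not particular to them. The same libraries lay at the ends of the first principal component of all genes tested, at -108.5 and 52.03. Npm1 was also lowest in wt replicate 1 and highest in ko replicate 2. Fibroblast markers summed to 32.7, 491 and 305 CPM in wt and to 714, 614 and 368 in ko, with all 10 markers higher in the estimate and 1 higher in every ko library. Most of this sum was Col3a1, with 19.0, 426 and 245 CPM in wt and 604, 473 and 308 in ko. Col1a1, Col1a2, Postn and Fap did not exceed 5.52 CPM in any library. Neutrophil markers summed to 1924, 1890 and 2107 CPM in wt and to 1609, 838 and 1586 in ko, with 5 of the 9 tested lower in every ko library. NK cell markers summed to between 33.3 and 61.5 CPM in wt and between 50.1 and 151 in ko. Those of B cells, dendritic cells and endothelium overlapped between the groups as well. Epithelial or carcinoma markers summed to 35.2, 137 and 79.9 CPM in wt and to 191, 182 and 129 in ko. This sum overlapped only through wt replicate 2 and ko replicate 3. Of its genes, Krt8 had 9.89 CPM in wt replicate 1 and between 59.1 and 171 in the other libraries. The part of these cell types in the differences of the members was not tested.

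**Figure D4:**
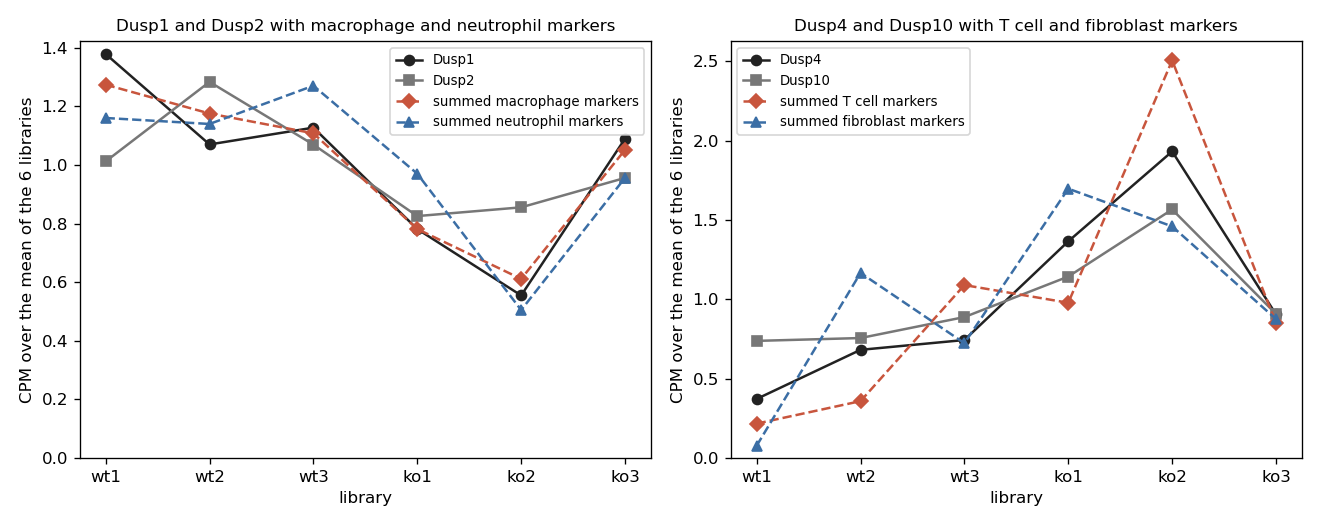
CPM of Dusp1 and Dusp2 with the summed macrophage and neutrophil markers (left) and of Dusp4 and Dusp10 with the summed T cell and fibroblast markers (right), each divided by its mean over the 6 libraries. The lines only join the values of a gene or list. Most of the fibroblast sum is Col3a1. Dusp1, the macrophage sum and the neutrophil sum have their lowest library at ko replicate 2, and Dusp4, Dusp10 and the T cell sum their highest. Dusp2 instead is lowest at ko replicate 1, and the fibroblast sum is highest there.

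Only Dusp4 spanned more than 4-fold between its highest and lowest library. The tested genes with the pattern most like it, by the root mean square distance of centred log2 CPM over 6 libraries, were Myo6, Osbpl5 and Etaa1, at distances of 0.085, 0.10 and 0.11. Their levels were low, from 0.703 to 10.97 CPM, and each was lowest in wt replicate 1 and highest in ko replicate 2. Those libraries were also the ends of the first principal component of all genes tested.

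The nearest relatives outside the set were examined in the same fit, in which 0 genes passed the adjusted p. All 3 remaining MAPK phosphatases had higher estimates in ko, with a median log2 fold change of 0.40 against 0.022 over all genes tested. That median was 0.20 without wt replicate 1 and 0.68 without wt replicate 2. Dusp9, a cytoplasmic phosphatase of ERK, had 1.97, 23.6 and 15.4 CPM in wt replicates 1, 2 and 3 and 37.3, 37.6 and 24.3 CPM in ko replicates 1, 2 and 3. Each ko library lay above each wt library, with a log2 fold change of 1.28 (standard error 0.70, edgeR adjusted p = 0.361) and 0.76 without wt replicate 1 or 1.92 without wt replicate 2. Dusp7, also cytoplasmic, had a log2 fold change of 0.40 (standard error 0.24, adjusted p = 0.380) with overlapping groups, and 0.19 without wt replicate 1.

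Spry4, a further Sprouty, had 0.309 CPM in wt replicate 1 and between 6.84 and 14.4 CPM in the other libraries. Its log2 fold change of 1.00 (standard error 0.88, edgeR adjusted p = 0.515) was 0.44 without wt replicate 1 and 1.63 without wt replicate 2. Spred2 had between 36.4 and 48.0 CPM with a log2 fold change of -0.026 (standard error 0.14, adjusted p = 0.920), and Spred3 -0.25 (standard error 0.16, adjusted p = 0.397). The 3 tested relatives of this family thus did not share a direction, and the direction of Spred2 turned with other scalings. Of the atypical dual-specificity phosphatases, which lack the domain that docks MAPKs, 10 of 15 were tested, with 6 higher and 4 lower estimates and a median of 0.18, or 0.011 without wt replicate 1. The largest among those of at least 10 CPM were Dusp22 at -0.57 (adjusted p = 0.341) and Dusp14 at 0.32 (adjusted p = 0.668), which were -0.25 and -0.027 without wt replicate 1.

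Of the 13 growth factor and colony-stimulating factor receptors, 7 had lower estimates in ko, and the median log2 fold change was -0.35. In 5 of them every ko library lay lower, as in 12.6% of all genes tested. Those 5 were all Csf receptor genes, Csf1r at -0.74, Csf2rb at -0.68, Csf2rb2 at -0.44, Csf2ra at -0.42 and Csf3r. The 6 higher ones were Fgfr1, Egfr, Pdgfra, Pdgfrb, Met and Kit. Csf1r is also on the macrophage marker list, and Pdgfra and Pdgfrb are on the fibroblast list. The largest were Csf3r, the receptor of granulocyte colony-stimulating factor and itself a neutrophil marker, at -0.83 (standard error 0.25, edgeR adjusted p = 0.328) and Fgfr1, a fibroblast growth factor receptor, at 0.97 (standard error 0.57, adjusted p = 0.381). Csf3r had between 379 and 527 CPM in wt and between 160 and 288 in ko. Fgfr1 had 15.4 CPM in wt replicate 1 and between 60.1 and 142 in the other libraries, with overlapping groups, and its log2 fold change was 0.51 without wt replicate 1. In the deposited FPKM, on the log2 scale with a pseudocount of 1, the median of the list was -0.048.

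Downstream of the receptors, 7 of 10 genes of the adaptor and Ras list had lower estimates, with a median of -0.071. In 4 of them every ko library lay lower, as in 12.6% of all genes tested. Gab2, a docking protein, stood at -0.41 (standard error 0.13, edgeR adjusted p = 0.328) and Sos1, an activator of Ras, at 0.42 (standard error 0.19, adjusted p = 0.329). Among the 10 ERK kinases 7 were lower, with a median of -0.17, or -0.025 in the deposited FPKM on the same scale. Map2k1, which encodes the ERK kinase MEK1, had between 206 and 218 CPM in wt and between 131 and 189 in ko, without overlap, and a log2 fold change of -0.44 (standard error 0.15, adjusted p = 0.328). Mapk3, encoding the kinase ERK1, stood at -0.35 (standard error 0.19, adjusted p = 0.361), and at -0.23 without wt replicate 1, -0.20 without ko replicate 2 and -0.53 without ko replicate 3.

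In the JNK and p38 list, 9 of the 14 tested genes had lower estimates, with a median of -0.12. Mapkapk3, a kinase activated by p38, stood at -0.47 (standard error 0.16, edgeR adjusted p = 0.328) without overlap, and Map3k5, which activates both pathways, at -0.33 (standard error 0.17, adjusted p = 0.353) and, without wt replicate 1, at -0.16. The other inhibitors of the cascade had 6 of 9 higher estimates and a median of 0.42, which was 0.13 without wt replicate 2. Rasa2, which switches Ras off, had 25.8, 38.7 and 52.0 CPM in wt and 60.2, 56.3 and 57.7 in ko, without overlap, and a log2 fold change of 0.58 (standard error 0.24, adjusted p = 0.328). Lrig1, an inhibitor of receptor tyrosine kinases, stood at 1.11 (standard error 0.72, adjusted p = 0.404) and was at 3.23 CPM in wt replicate 1 against 29.4 to 63.9 elsewhere. Without that library the log2 fold changes of Rasa2 and Lrig1 were 0.35 and 0.59.

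Transcripts that ERK is known to induce had 11 of 16 higher estimates in ko and a median of 0.19, and 2 were higher and 1 lower in every ko library. Etv4 and Myc, both transcription factors, stood at 1.22 (standard error 0.79, edgeR adjusted p = 0.404) and 1.05 (standard error 0.47, adjusted p = 0.331). Etv4 had 0.759 CPM in wt replicate 1 and between 8.71 and 22.5 in the other libraries, and Myc 60.5 against 178 to 401. Without wt replicate 1 the log2 fold changes were 0.68 and 0.64.

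The list of dissociation and stress genes, which can follow the handling of tissue, summed to between 9375 and 12262 CPM in wt and between 8400 and 9387 in ko, and its median log2 fold change was 0.014. The list shares Fos, Junb, Egr1, Ier2 and Nr4a1 with the ERK-induced transcripts, so the lists are not independent. Its largest estimates were those of the heat shock genes Hspa1b at -0.66 (standard error 0.22, edgeR adjusted p = 0.328) and Hspa1a at -0.64 (standard error 0.22, adjusted p = 0.328), near-identical copies between which the counting could have divided reads. The 3 RNA-decay factors, which shorten the life of inducible transcripts, were all lower in the estimate, with a median of -0.35. Zfp36, which encodes tristetraprolin, stood at -0.40 (standard error 0.24, adjusted p = 0.387) and Zfp36l2 at -0.35 (standard error 0.21, adjusted p = 0.388), both with overlapping groups. Without wt replicate 1 they were -0.24 and -0.15, and the median of the list was -0.24.

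**Figure D5:**
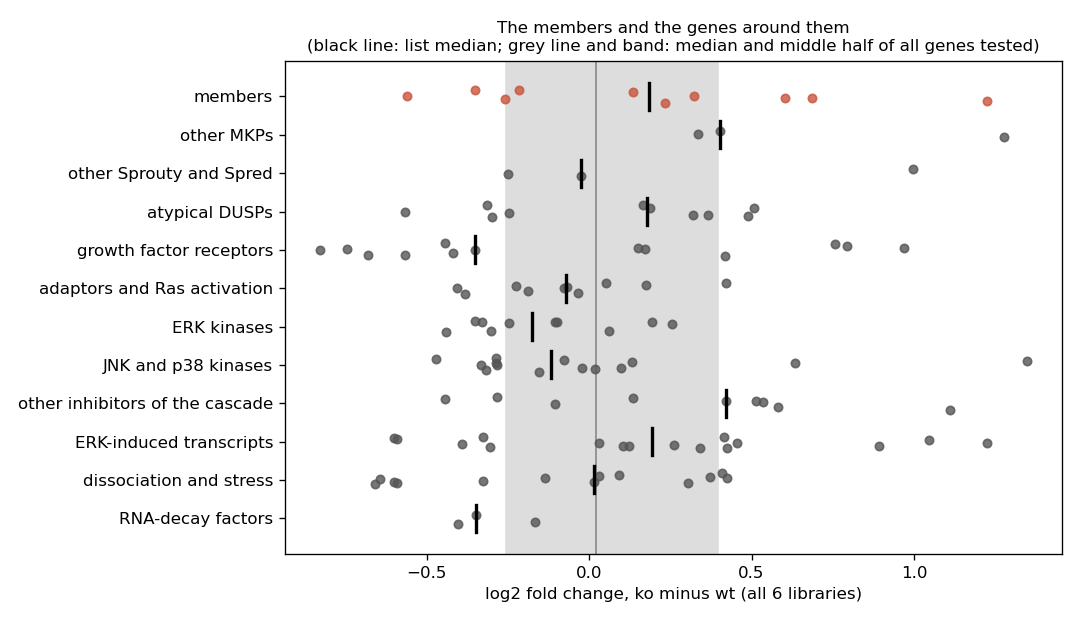
Log2 fold change of ko minus wt for the 10 members (red) and for each tested gene of the lists around them (grey), with the median of each list as a black line and the median and interquartile range of all genes tested as a grey line and band. The members reach from -0.56 for Dusp1 to 1.23 for Dusp4, and the list medians lie between -0.35 and 0.42.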

How the data were processed

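The deposited table holds raw counts of reads for each gene and the FPKM that the authors derived from them, both for each library. The deposited FPKM equal the count over a fixed gene length and the library total, as checked for the members. The submitters' processing notes name mm10, and the aligner, the counting tool and the annotation are not given in the sources used here. Coordinates are those of RefSeq on GRCm38.p6, matched by NCBI Gene number, with overlaps from GENCODE.

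Counts were fitted with edgeR 4.0.16 in R 4.3.3 (filterByExpr, TMM, glmQLFit, glmQLFTest) with Benjamini-Hochberg adjustment over 13884 genes. The size of each log2 fold change was divided by the square root of its F statistic to give a standard error. log2 CPM used a prior count of 2. The code was tested on simulated counts. DESeq2 1.42.0 and limma 3.58.1 (on log2 FPKM) served as alternatives, next to other scalings, filters, a replicate block and leaving out each library. The members, lists and motifs were chosen with earlier results of these data known. The text names all members, Npm1, Spry4, Spred2, Dusp7, Mapk3, and the 2 genes of each list with the largest estimate at 10 CPM or more, and 1 further gene is not reported here. p-values measure the spread between libraries, and depth covers counting error only.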

Additional observations from a re-analysis of the deposited data

How the results depend on the processing

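edgeR and limma gave 0 genes under each alternative run, while DESeq2 gave 36 genes over 6 libraries and 78 without wt replicate 1, and members called were 0 throughout. Members with every ko library below wt were 2, but 3 with upper quartile scaling, 0 in the deposited FPKM with limma, and between 2 and 4 with 1 library left out. The 15 alternatives other than scaling to macrophage markers gave 150 log2 fold changes for the 10 members, of which 145 moved by less than the spread between replicates and 4 by more, Dusp2 to -0.196 and -0.197 and Dusp6 to -0.103 and -0.105 with log2 FPKM plus 1 and plus 0.1, while 1 changed sign, that of Dusp16 (from -0.034 without ko replicate 3 to 0.26 without ko replicate 2). Spred2 changed sign to 0.0069 with upper quartile scaling, 0.00065 with at least 10 counts in every library, 0.067 and 0.12 with log2 FPKM plus 1 and plus 0.1, and from -0.12 without wt replicate 1 to 0.080 without wt replicate 2, and as their median so did the other Sprouty and Spred genes. With log2 FPKM plus 1 and plus 0.1, which moved the median of all genes to 0.092 and 0.16, the adaptor list was 0.082 and 0.089, the JNK and p38 list 0.043 and 0.046, the ERK kinases -0.025 and -0.023, and the receptors -0.048 and -0.15. Dusp14 was -0.027 and, with DESeq2, -0.056 without wt replicate 1, and 0.93 without wt replicate 2. The stress list was -0.00044 with RLE scaling, -0.0082 with DESeq2 and from -0.15 without wt replicate 2 to 0.13 without wt replicate 1. Scaling to the macrophage markers, added after the data were seen, left 0 members with every ko library below wt and moved Dusp2 to 0.24, Dusp5 to 0.37 and Dusp6 to 0.35. It also moved the median of all genes tested to 0.63, above these 3 values, and placed every ko library of Dusp16 above wt. Libraries with the same replicate number did not deviate together (correlations of deviations -0.241, 0.0605 and -0.337), and with the replicate block 0 genes passed and 1606 had an unadjusted p under 0.05. The cause was not tested. Depth limits no member, since the scarcest, Spry1, had at least 106 counts in each library.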
